A study of Mus musculus with 3 samples.

Results

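The genes described here encode RNA polymerases I, II and III, the general transcription factors, Mediator and a few elongation factors, measured in mouse cells that the labels call spermatids, which are haploid germ cells of the testis. Members were taken by gene symbol alone, as every gene whose array symbol began with Gtf2, Gtf3, Polr1, Polr2, Polr3, Supt or Tbp, was Ell with or without a digit, or was Taf or Med followed by a digit. This gave 114 of 19938 named genes, carried by 130 probe sets that each name 1 gene. The rule uses symbols and no measured level.

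RNA came from testes of 30-day-old wild type BALB/c males and was hybridised to 3 arrays of 1 type, the Affymetrix GeneChip Mouse Gene 1.0 ST. The labels number the arrays as replicates 1 to 3 of 1 group, with no second genotype, treatment or age, so no condition could be compared with another. Tubules were cut, homogenised and strained to single cells, and no step that sorts spermatids is described in the labels. The labels do not say that the replicates came from separate animals, so errors and p-values measure the spread between these arrays, which may be technical.

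Protein-coding genes are transcribed by RNA polymerase II, which needs TFIIA, TFIIB, TFIID, TFIIE, TFIIF and TFIIH to start at a promoter and Mediator to receive signals from activators. TFIID consists of the TATA-binding protein TBP and its associated factors, the TAFs. Male germ cells are known for using paralogs of these factors: TBPL1 is a relative of TBP that mouse spermatids need to mature, TAF7L and TAF4B are paralogs of TAF7 and TAF4, and GTF2A1L is the germ cell relative of the large TFIIA subunit GTF2A1.

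Upstream sequence is shown for 3 of the germ cell paralogs, Taf7l, Tbpl1 and Gtf2a1l, because the results start from them, and for Taf7l2, a relative of Taf7l. The Taf4b window is not shown here. Each line gives 300 bases of mouse assembly GRCm38.p6 from RefSeq, 250 before the annotated gene start and 50 after it, 5′ to 3′ on the gene's strand. Capitals mark matches on either strand to the TATA box letters TATAAA, the GC box letters GGGCGG or the core letters TGACG of the cyclic AMP response element (CRE).
Taf7l, chrX:134476441-134476740, minus strand: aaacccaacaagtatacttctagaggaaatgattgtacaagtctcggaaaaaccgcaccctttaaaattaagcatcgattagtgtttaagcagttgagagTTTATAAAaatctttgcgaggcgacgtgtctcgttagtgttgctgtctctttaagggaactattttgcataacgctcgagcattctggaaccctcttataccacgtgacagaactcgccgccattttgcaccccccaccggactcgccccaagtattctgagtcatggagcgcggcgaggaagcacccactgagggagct
Taf7l2, chr10:116113868-116114167, minus strand: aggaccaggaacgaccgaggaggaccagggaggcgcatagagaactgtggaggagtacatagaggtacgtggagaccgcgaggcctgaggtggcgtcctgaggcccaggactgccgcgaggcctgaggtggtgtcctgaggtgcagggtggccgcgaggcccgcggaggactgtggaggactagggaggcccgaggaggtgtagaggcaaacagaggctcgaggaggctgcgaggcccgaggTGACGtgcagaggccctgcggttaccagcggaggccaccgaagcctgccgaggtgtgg
Tbpl1, chr10:22731398-22731697, minus strand: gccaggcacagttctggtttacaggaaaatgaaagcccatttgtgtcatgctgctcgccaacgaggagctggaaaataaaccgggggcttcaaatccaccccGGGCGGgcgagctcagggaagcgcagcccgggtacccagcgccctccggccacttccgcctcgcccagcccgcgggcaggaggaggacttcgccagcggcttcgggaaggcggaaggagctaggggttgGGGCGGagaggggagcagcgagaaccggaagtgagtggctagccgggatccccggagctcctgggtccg
Gtf2a1l, chr17:88668410-88668709, plus strand: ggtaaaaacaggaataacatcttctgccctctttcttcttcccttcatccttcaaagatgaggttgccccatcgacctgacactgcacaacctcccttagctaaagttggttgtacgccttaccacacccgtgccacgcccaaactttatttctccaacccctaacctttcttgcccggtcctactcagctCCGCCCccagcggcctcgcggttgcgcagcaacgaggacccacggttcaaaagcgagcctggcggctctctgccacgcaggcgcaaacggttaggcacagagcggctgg
In the Taf7l window, TATAAA was found in 2 overlapping matches, on opposite strands, that began 150 and 148 bases before the gene start. The Tbpl1 window held 2 GC boxes, 148 and 19 bases before the start, the Gtf2a1l window 1 GC box 59 bases before the start, and the Taf7l2 window 1 CRE core 8 bases before the start. RefSeq windows were matched by symbol for 101 of the 114 members, 119 windows in all. GGGCGG was present in 63.0% of these 119 windows, against 46.2% of 21262 windows of protein-coding genes and 35.7% of all 32851 windows. TGACG was present in 37.0% of member windows, against 23.6% of protein-coding windows and 20.8% of all windows. TATAAA was present in 10.9% of member windows, against 12.6% of protein-coding windows and 13.6% of all windows. The full CRE, TGACGTCA, contains TGACG on both strands and was in 5 member windows (4.20%), against 2.23% of protein-coding windows and 1.79% of all windows. A match is a description of the letters in a window and not a binding site.

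Most of the transcription machinery was measured above background in these cells. Values are levels on the log2 scale, deposited after Robust Multichip Average (RMA) processing, and errors are SDs over 3 arrays. Background was set at 7.98, below which 95% of 211 vomeronasal receptor and hair keratin associated protein genes fell by their mean levels, families not expected in testis. With limma's one-sided test and Benjamini-Hochberg adjustment over all named genes, 86 of 114 members (75.4%) were called above it, against 36.6% of all named genes. The members' median level was 8.94, against 7.45 for all named genes. The middle 50% of members lay between 8.13 and 9.90, against 6.48 and 8.84 for all named genes. No test of the list was made, and these shares describe the genes on these arrays. A gene that was not called is not shown to be absent, because the median of the background families was far lower at 4.77.

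**Figure D1:**
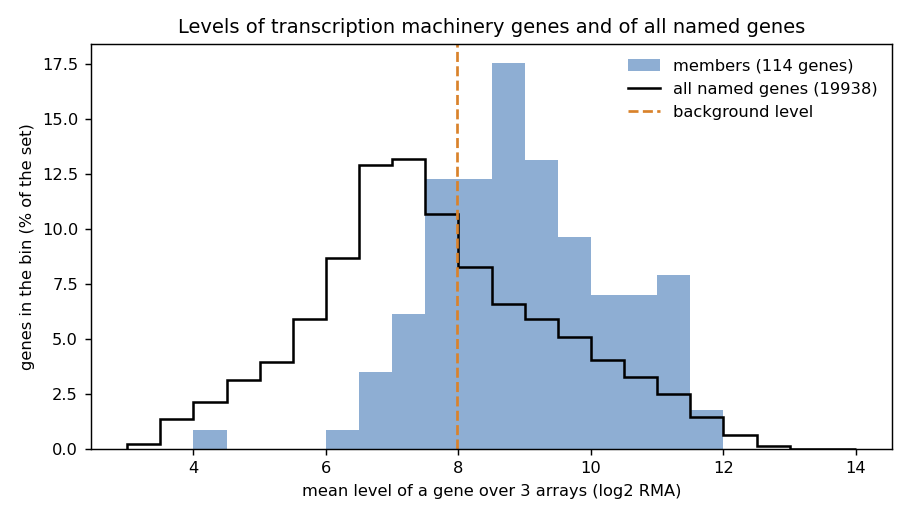
Distribution of mean levels (log2 RMA, x axis, bins of 0.5) for the 114 members (filled) and all 19938 named genes (line), each as a percentage of its set (y axis). The members' fullest bin runs from 8.5 to 9.0 and holds 20 genes, to the right of the dashed background level of 7.98, while the fullest bin of all named genes runs from 7.0 to 7.5.

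The count depended on the background chosen. With olfactory receptor genes as background and the same percentile, the level was 7.18, and limma's test called 107 members (93.9%), against 55.0% of all named genes. With the 99th percentile of the vomeronasal receptor and keratin associated families, 9.16, it called 44 members (38.6%), against 19.3% of all named genes. The share among members was the higher of the pair at each level. Exactly equal values on all 3 arrays were deposited for 55 of the 114 members (48.2%), against 46.0% of all named genes. For these tied genes the SD is 0, which does not mean an absence of error, and a tied gene in effect passed if its value exceeded the background. Of the 86 called members 37 were tied. When arrays were left out in turn, 8 members lost their call at least once, namely Gtf2f2 without any one of the 3, Gtf3c3 and Polr3g without replicate 1 or 2, Polr3f and Taf11 without replicate 1 or 3, Polr2c without replicate 2 or 3, Gtf2a2 without replicate 2 and Taf3 without replicate 1.

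**Figure D2:**
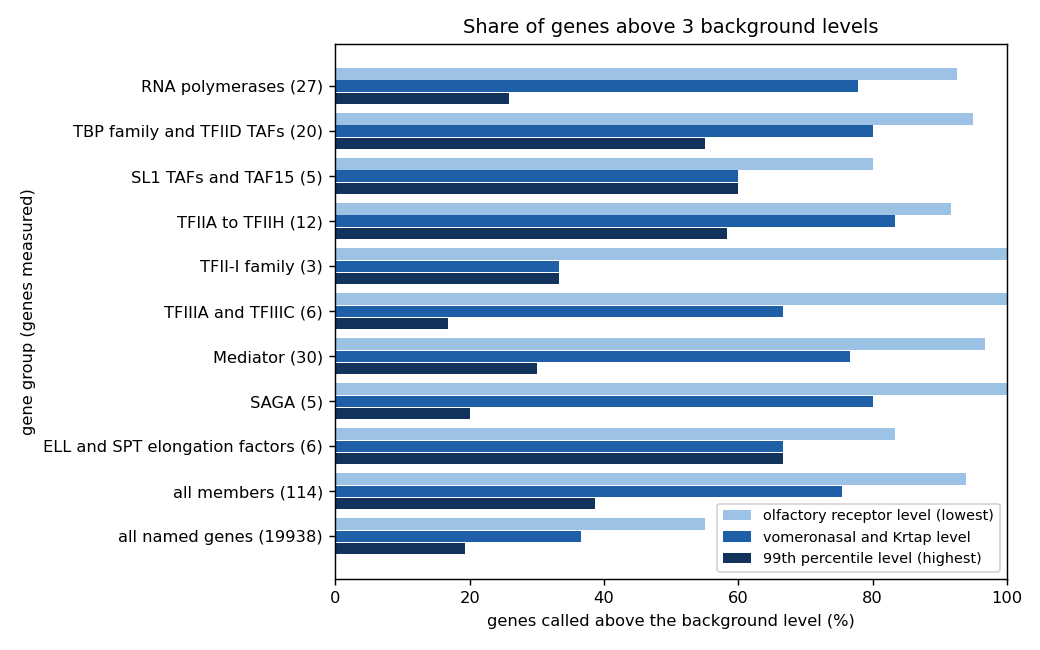
Percentage of genes called above background (x axis, 0 to 100%) in each group of members, in all 114 members and in all 19938 named genes, at the 3 background levels of 7.18, 7.98 and 9.16. At the middle level the bars reach 77.8% for RNA polymerases, 76.7% for Mediator and 36.6% for all named genes.

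The arrays carried RNA of several testis cell types. All 10 markers of spermatids measured and all 10 of spermatocytes were called above background, with medians of 12.26 and 11.21. So were 7 of 8 Leydig cell and 6 of 9 Sertoli cell markers, against 36.6% of all named genes. The counts were lower for peritubular and endothelial cells (4 of 8), blood and immune cells (4 of 7) and spermatogonia (3 of 10, below that share). Not called were Lum and the endothelial genes Kdr, Pecam1 and Cdh5, and in the blood and immune list Ptprc, Cd3e and Cd79a. The 10 markers of other tissues ran from 4.96 to 7.87, below the level. Pearson's r between arrays over 35556 probe sets, which are not independent replicates, ranged from 0.992 to 0.995. In such mixed RNA, fewer cells of a type and less RNA per cell cannot be told apart, and the cell type that supplied a general factor's RNA was not tested. Probes differ in how well they bind, so levels of different genes, paralogs included, are given side by side and are not amounts of RNA relative to each other.

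The 4 germ cell paralogs were all called above background, at each of the 3 levels. Of all named genes 55.0%, 36.6% and 19.3% were called at 7.18, 7.98 and 9.16. These 4 paralogs were listed for their known use in male germ cells. Taf7l, on chromosome X, was at 10.15 on replicates 1 and 2 and at 10.35 on replicate 3, a mean of 10.22 ± 0.12 (adjusted p = 0.000621, limma). Taf7, its general counterpart on chromosome 18, was at 7.85 on replicates 1 and 2 and 7.86 on replicate 3 and was not called. All 3 arrays thus placed Taf7l above the level and Taf7 just below it. Taf7l2, an autosomal relative on chromosome 10, was at 10.18 with tied values and was called. Its level is uncertain if its probes also bind Taf7l RNA, which was not tested.

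Taf4b, the TAF4 paralog of germ cells, was at 9.31 on replicates 1 and 2 and 9.32 on replicate 3 (mean 9.31 ± 0.01, adjusted p = 3.14e-06, limma). Taf4, the general subunit around which TFIID is built, was at 7.86, 8.0 and 7.73 on replicates 1, 2 and 3, with a mean of 7.86 ± 0.13, and was not called. Only replicate 2 lay above the level of 7.98 for Taf4. For the TBP and TFIIA pairs both genes were called. Tbpl1 was at 10.92, 10.88 and 10.97 on replicates 1, 2 and 3 (mean 10.92 ± 0.04, adjusted p = 5.51e-05, limma). Tbp, the TATA-binding protein itself, was at 11.42 on replicates 1 and 2 and 11.52 on replicate 3 (mean 11.45 ± 0.06). Tbpl2, the TBP paralog of oocytes, was at 4.03 on every array, below the median of the background families. Gtf2a1l was at 11.27 on replicates 1 and 2 and at 11.44 on replicate 3 (mean 11.32 ± 0.10, adjusted p = 0.000201, limma). Gtf2a1 was at 11.37 on all arrays. With the olfactory receptor background Taf7 and Taf4 were called too, and with the 99th percentile neither was.

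**Figure D3:**
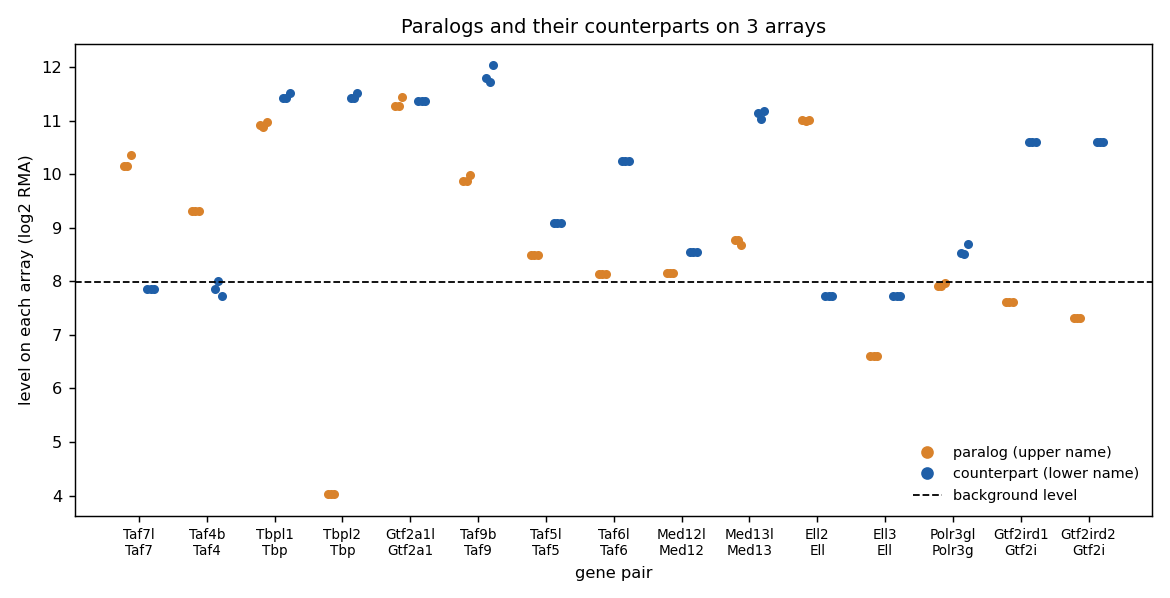
Level on each of 3 arrays (log2 RMA, y axis) for 15 pairs of a paralog (left, upper name) and its counterpart (right, lower name), with the background level of 7.98 dashed. Taf7l and Taf4b sit above the line with Taf7 and Taf4 at it, both genes of the Tbpl1 and Gtf2a1l pairs sit above it, and Tbpl2 is at 4.03.

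TFIID TAFs were called in 14 of 17 measured members (82.4%, against 36.6% of all named genes), with a median of 9.32. At the 99th percentile level 9 of 17 were called (52.9%, against 19.3% of all named genes). Besides Taf4 and Taf7, the gene not called was Taf8, a partner of TAF10 in TFIID assembly, at 7.25 with tied values. The highest level was that of Taf9, a histone-fold subunit that pairs with TAF6, at 11.80, 11.72 and 12.03 on replicates 1, 2 and 3. Its mean of 11.85 ± 0.16 had the second largest SD of all members. That value came from 1 probe set whose array ID lies among those of genes on chromosome 4, whereas Taf9 is on chromosome 13, and the probe set that names both Taf9 and Ak6 was at 10.27. Taf2 at 10.40 ± 0.04 and Taf6 at 10.25 were next, and Taf1, the largest subunit, on chromosome X, was at 9.13 ± 0.05. Taf9b, an X-linked paralog of Taf9, was at 9.87 on replicates 1 and 2 and 9.98 on replicate 3 (mean 9.91 ± 0.06, adjusted p = 0.000244, limma). Taf10, Taf12, Taf13, Taf5, Taf11 and Taf3 were called at means between 8.86 and 9.86. Taf15, which encodes an RNA-binding protein found with a fraction of TFIID, was at 11.01, 10.96 and 11.03 on replicates 1, 2 and 3 and was called.

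The coactivator SAGA shares TAFs with TFIID and holds paralogs of others. Supt20, a core subunit, shared the highest mean of all members with Taf9, at 11.85 ± 0.04, with 11.83 on replicates 1 and 2 and 11.89 on replicate 3. Supt3 at 9.11, Taf5l at 8.49 and Taf6l at 8.13 were called with tied values, and Supt7l at 7.71 was not. At the 99th percentile level 1 of these 5 was called (20.0%), near the 19.3% of all named genes. Taf5 and Taf6, the TFIID counterparts of the TAF5L and TAF6L genes, were called as well, at 9.09 and 10.25. Taf6l was among the 12 members within 0.25 of the level.

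All 8 TFIIA, TFIIB, TFIIE and TFIIF genes measured were called, against 36.6% of all named genes. At the 99th percentile level 5 of 8 were called, against 19.3% of all named genes. Gtf2b, the single TFIIB gene, was at 11.30, 11.23 and 11.33 on replicates 1, 2 and 3 (mean 11.29 ± 0.05, adjusted p = 5.45e-05, limma). Gtf2e2, the small TFIIE subunit, was at 11.37, 11.32 and 11.62, and its SD of 0.16 was the largest of all members. Gtf2e1, the large subunit of the same factor, was at 8.39 with tied values. Gtf2f1 and Gtf2f2, the TFIIF subunits, were at 10.66 ± 0.11 and 8.85 ± 0.15, and the small TFIIA subunit Gtf2a2 was at 9.51 ± 0.15. Replicate 3 was the highest array for each of the untied genes of these 4 factors. TFIIH, which opens the promoter and phosphorylates the polymerase, gave 2 of 4 (50%, against 36.6% of all named genes). At the 99th percentile level it also gave 2 of 4, against 19.3% of all named genes. Gtf2h1 at 10.44 ± 0.06 and Gtf2h5 at 9.73 were called, while Gtf2h4 at 7.94 ± 0.13 and Gtf2h3 at 7.14 were not.

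Among kinase and helicase partners of TFIIH that the symbol rule does not cover, the helicase gene Ercc3 at 9.26 and the cyclin gene Ccnh at 9.04 ± 0.06 were called. The kinase gene Cdk7 at 7.46 ± 0.06, Mnat1 at 7.65 ± 0.10 and the helicase gene Ercc2 at 7.58 were not. Thus 2 of 5 passed (40%), near the 36.6% of all named genes. Of the TFII-I family, Gtf2i at 10.61 was called, and its relatives Gtf2ird1 at 7.62 and Gtf2ird2 at 7.33 were not, all with tied values. The share called in this family, 33.3%, was near the 36.6% of all named genes. All 3 genes of the family were called at the olfactory receptor level, against 55.0% of all named genes.

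RNA polymerase genes were called in 21 of 27 measured members (77.8%, against 36.6% of all named genes), with a median of 8.66. At the 99th percentile level 7 of 27 were called (25.9%, against 19.3% of all named genes). Both catalytic subunits of polymerase II were far above the level. Polr2a, the largest subunit with the phosphorylated tail, was at 11.21, 11.15 and 11.03 on replicates 1, 2 and 3, a mean of 11.13 ± 0.09 (adjusted p = 0.000205, limma). In contrast to most untied members, its highest array was replicate 1. Polr2b, the other catalytic subunit, was at 10.84 with tied values, and Polr2m, whose product GDOWN1 binds polymerase II and makes it depend on Mediator, was at 10.49. Polr2g, which forms the stalk of the enzyme with POLR2D, was at 9.83 ± 0.01. Polr2d was at 8.11, 8.05 and 8.25 on replicates 1, 2 and 3, above the level on each array, yet its mean of 8.14 ± 0.10 was not called (adjusted p = 0.126, limma). The other polymerase II genes, Polr2j at 9.24 ± 0.05, Polr2i at 8.81 ± 0.05 and Polr2c at 8.37 ± 0.07, were called.

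Of the subunits that all 3 polymerases share, 3 of 5 were called (60.0%, against 36.6% of all named genes), and all 5 lay below the 99th percentile level of 9.16. Polr2l at 8.97, Polr2h at 8.28 and Polr2f at 8.01 were called with tied values, and Polr2e at 7.53 was not. The Polr2h level is the median of probe sets at 8.60 and 7.97, the lower of them just below the level. That lower probe set has an array ID among those of another chromosome. With the arrays centred on their medians, Polr2f was not called and Polr2d was. Polr2k was at 6.91 ± 0.01 by the probe set that names only this gene and was not called. A second probe set, which names Polr2k and an unnamed locus, was at 10.34 on every array, so the level of Polr2k is uncertain. Polr1c and Polr1d, shared by polymerases I and III, were at 9.64 and 10.84 ± 0.04.

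Polymerase I, which makes ribosomal RNA, had 2 of 3 genes called (66.7%, against 36.6% of all named genes), and all 3 lay below the 99th percentile level of 9.16. Polr1a, its largest subunit, was at 9.09 and Polr1e at 8.73 ± 0.05, while Polr1b, the other catalytic subunit, was at 7.0 with tied values. Polymerase III, which makes transfer RNAs and 5S ribosomal RNA, had 7 of 9 (77.8%, against 36.6% of all named genes). It had 1 of 9 (11.1%) at the 99th percentile level, below the 19.3% of all named genes, and 4 of 9 when probe sets of several genes were added. Its highest genes were Polr3c at 9.86 ± 0.06, Polr3k at 8.96 ± 0.01, the catalytic Polr3a at 8.66 and Polr3g at 8.59 ± 0.10. Polr3gl, the alternative form of the subunit encoded by Polr3g, was at 7.91 on replicates 1 and 2 and 7.98 on replicate 3 and was not called. The Polr3g values were 8.54, 8.52 and 8.71 on replicates 1, 2 and 3, all above the level (adjusted p = 0.00768, limma). Polr3b, the other catalytic subunit, was called at 8.42 and Polr3e at 8.32 ± 0.01. The Polr3e level is the median of probe sets at 8.75 and 7.89, the lower of them below the level, so its call depends on the probe set. Polr3d at 7.61 was also not called, and Polr3f at 8.19 ± 0.06 passed narrowly (adjusted p = 0.0205, limma).

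Initiation factors of polymerases I and III included genes called and genes not called. SL1, the TBP complex of the ribosomal RNA promoter, had 2 of 4 TAFs called (50%, against 36.6% of all named genes). Taf1b at 10.35 ± 0.14 and Taf1a at 9.46 ± 0.06 were called, while Taf1c at 7.5 ± 0.08 was not. Taf1a is on chromosome 1 and has 1 probe set. By array ID, its 20 nearest named probe sets were most often of chromosome 9 genes (4 of 20). What the Taf1a probe set measures was not tested. Taf1d, the last SL1 subunit, is a host gene of small nucleolar RNAs and had 9 probe sets, from 6.0 to 11.44. Their median gave Taf1d a level of 6.87. The probe set of Taf1d annotated with RefSeq mRNAs was at 8.74, 8.47 and 9.18 on replicates 1, 2 and 3, a mean of 8.80, so the call for Taf1d depends on the probe set. Of its probe sets 4 carried identical values on every array with a mean of 6.0.

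TFIIIA and TFIIIC, which bind polymerase III genes and bring in TFIIIB, had 4 of 6 genes called (66.7%, against 36.6% of all named genes). At the 99th percentile level 1 of 6 was called (16.7%), below the 19.3% of all named genes. Gtf3c6 at 9.19, Gtf3c1 at 9.14 ± 0.05, Gtf3c3 at 8.70 ± 0.09 and Gtf3c4 at 8.38 were above background. Gtf3a, which binds the 5S ribosomal RNA gene, at 7.73 and Gtf3c5 at 7.57 were not. Gtf3c2 had no probe set of its own, and of those it shares with Mpv17 one was at 9.80 and the other at 4.38.

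**Figure D4:**
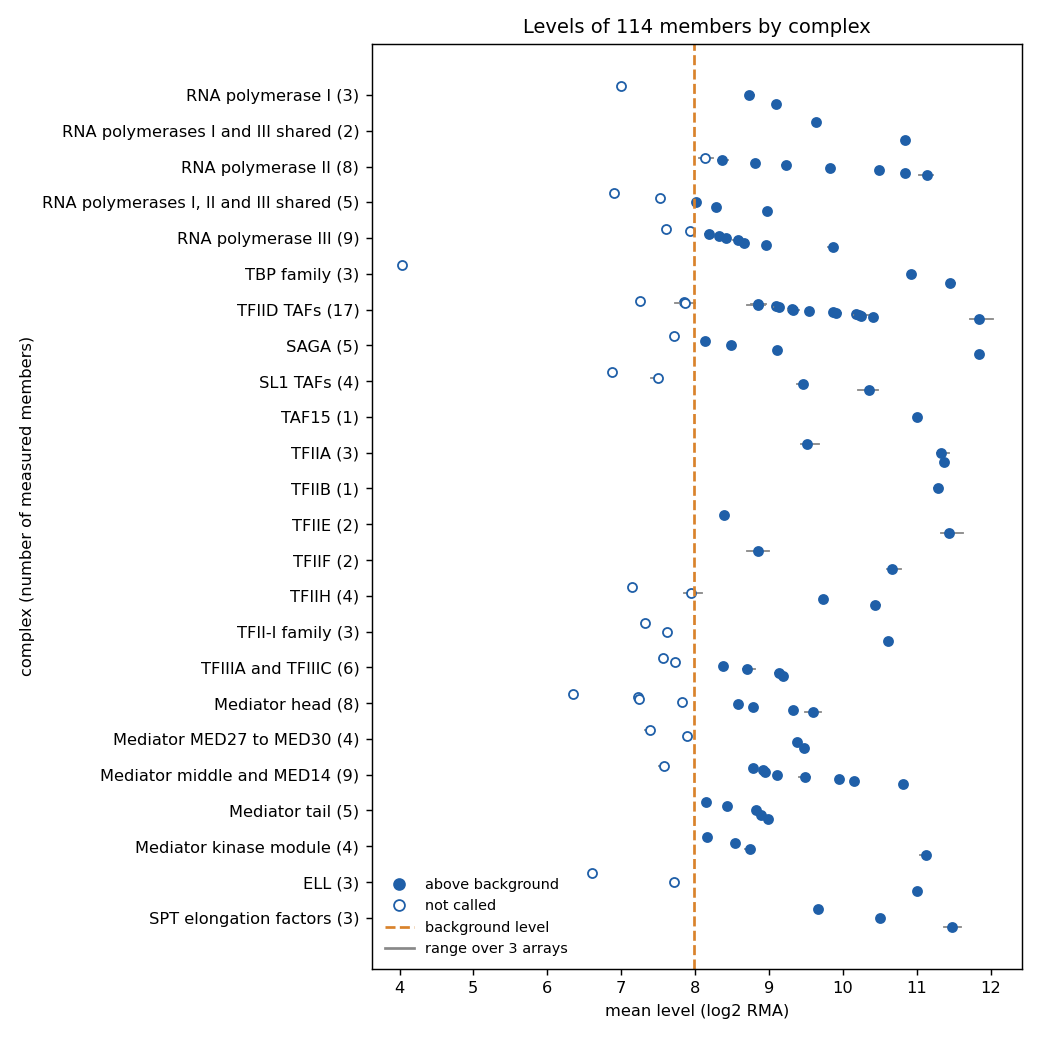
Mean level of each of the 114 members (log2 RMA, x axis) by complex (y axis, with the number of measured members), with grey bars for the range over 3 arrays, filled points for genes called above background and open points for those not called. Every Mediator tail and kinase module gene lies right of the dashed level of 7.98, while 4 of 8 head genes lie left of it.

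Mediator genes were called in 23 of 30 (76.7%, against 36.6% of all named genes), with a median of 8.81. At the 99th percentile level 9 of 30 were called (30.0%, against 19.3% of all named genes). The order of the modules depends on the level, and no test of their differences was made. All 4 genes of the kinase module, which associates reversibly with the core, were called, against 36.6% of all named genes. At the 99th percentile level 1 of 4 was called (25%, against 19.3% of all named genes). Med13, the link between that module and the core, was at 11.15, 11.04 and 11.18 on replicates 1, 2 and 3 (mean 11.12 ± 0.07, adjusted p = 0.000126, limma). Its paralog Med13l was at 8.78 on replicates 1 and 2 and 8.68 on replicate 3 (mean 8.75 ± 0.06). Med12, on chromosome X, was at 8.54 and its paralog Med12l at 8.16, both tied. The kinase partners outside the symbol rule, Cdk19 at 10.28, Cdk8 at 9.71 ± 0.04 and Ccnc at 8.78, were called too.

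All 5 tail genes, whose products meet activators, were called, against 36.6% of all named genes. They lay within a narrow range from Med25 at 8.15 and Med16 at 8.44 to Med24 at 8.89 and Med15 at 8.99 ± 0.03. Med23 at 8.83 ± 0.04 was between them. All 5 lay below the 99th percentile level of 9.16. The middle module with its backbone subunit MED14 had 8 of 9 called (88.9%, against 36.6% of all named genes). Med10 was at 10.82, Med21 at 10.15 ± 0.01, the nuclear receptor partner Med1 at 9.95 ± 0.02 and Med7 at 9.48 ± 0.07. Med31 at 9.11, Med26 at 8.92 ± 0.02 and Med9 at 8.79 were called, and Med14, on chromosome X, was at 8.95 with tied values. Med4 was the member not called, at 7.57 ± 0.05, the median of probe sets at 8.58 and 6.56. The lower of these has an array ID among those of chromosome X genes, whereas Med4 is on chromosome 14.

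The head module, which contacts the polymerase, had 4 of 8 called (50%, against 36.6% of all named genes). At the 99th percentile level 2 of 8 were called (25%), near the 19.3% of all named genes. Med6 was at 9.57, 9.49 and 9.71 on replicates 1, 2 and 3 (mean 9.59 ± 0.11), Med19 at 9.32, Med8 at 8.78 ± 0.01 and Med17 at 8.58. Med20 at 7.82, Med11 at 7.24, Med22 at 7.22 and Med18 at 6.35 were not called, all with tied values. A probe set that names Med20 and Usp49 was at 8.87. At the olfactory receptor level limma's test called Med20, Med11 and Med22 as well, and Med18 was not called. Of the 4 metazoan subunits MED27 to MED30, Med27 at 9.47 and Med28 at 9.38 ± 0.04 were called, and Med29 at 7.90 ± 0.02 and Med30 at 7.38 ± 0.05 were not.

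Elongation factors were counted by family, with 3 genes in each and no test of the difference. Of the ELL genes 1 of 3 was called (33.3%), near the 36.6% of all named genes. Ell2, one of the ELL proteins that raise the rate of polymerase II, was at 11.01 on replicates 1 and 3 and just below on replicate 2 (mean 11.01 ± 0.01, adjusted p = 1.4e-06, limma). Ell was at 7.72 and Ell3, described in human as a testis gene, at 6.60, both tied and not called. Ell3 also stayed below the olfactory receptor level of 7.18. All 3 measured SPT factors were called, against 36.6% of all named genes. Supt16, a subunit of the histone chaperone FACT, was at 11.47, 11.37 and 11.60 on replicates 1, 2 and 3 (mean 11.48 ± 0.11, adjusted p = 0.000245, limma). Supt6, which moves with the polymerase, was at 10.50 and Supt5, a subunit of the pausing factor DSIF, at 9.66, both tied. A probe set that names Supt6 and Mir675 was at 7.02. Supt4a, the partner of SUPT5, and its near copy Supt4b share their probe sets, which were at 10.75 and 9.30, so neither gene was given a level of its own.

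Other genes, taken from lists of machinery partners and of 7 spermatid transcription regulators, were called in 51 of 71 measured, 71.8% against 36.6% of all named genes. All 4 regulators of TBP were called, with Btaf1, which removes TBP from DNA, at 11.59 ± 0.11 and the coactivator Sub1 at 11.39. All 7 spermatid transcription regulators were called, led by Fhl5, a partner of CREM, at 11.66 ± 0.02 and Sox30 at 10.87 ± 0.08. These 7 were listed for their role in spermatids, and they raise the share of 71.8%. Of 17 elongation genes 13 passed (76.5%, against 36.6% of all named genes), among them Cdc73 of the PAF1 complex at 11.43 and Eloc of elongin at 10.84. Eloa at 7.96, Aff1 at 7.03, Tcea3 at 6.96 and Eaf2 at 6.88 did not. Of 9 genes of pausing and P-TEFb 5 passed (55.6%, against 36.6% of all named genes), with Larp7 at 11.08 ± 0.15 and Nelfa at 9.76 highest. Ccnt2 at 8.18 ± 0.16, Nelfcd at 7.66 ± 0.01, Hexim1 at 7.12 ± 0.03 and Nelfb at 7.01 were not called.

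Polymerase I factors and its remaining subunits gave 4 of 7 (57.1%, against 36.6% of all named genes). Znrd1 at 9.56 ± 0.07 and the initiation factor Rrn3 at 8.89 were highest. Cd3eap at 7.48, Twistnb at 7.02 ± 0.31 and Ubtfl1 at 6.84 ± 0.08 were not called. Polymerase III factors gave 6 of 10 (60%, against 36.6% of all named genes), with Crcp at 10.31 ± 0.05 and Snapc3 at 9.50 highest. Snapc2 at 7.82 ± 0.02, Snapc4 at 7.62, Snapc1 at 6.67 ± 0.16 and Brf2 at 6.52 ± 0.05 were not called. SAGA partners gave 7 of 9 (77.8%, against 36.6% of all named genes), led by Sgf29 at 10.58 and Tada2b at 9.38 ± 0.01. Atxn7 at 7.94 ± 0.06 and Usp22 at 7.93 were not called.

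The 5 members on chromosome X, Taf1, Taf7l, Taf9b, Med12 and Med14, were all called above background, from 8.54 to 10.22. Of all 739 X-linked named genes 27.6% were called, and of 109 autosomal members 74.3%. As background, meiosis silences the X chromosome in male germ cells, and transcription from it stays limited in spermatids. At the 99th percentile level 3 of the 5 (Taf1, Med12 and Med14) were not called, and Taf7l and Taf9b were.

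Members varied little between arrays. The median SD of the 59 untied members was 0.06, against 0.05 for the untied among all named genes, and the largest SD of a member was 0.16. The median over members was 8.94 on replicate 1 and 8.95 on replicates 2 and 3. Where values differed, replicate 3 was alone the highest array for 38 of 59 members (64.4%) and replicate 2 alone the lowest for 29 (49.2%). Over all 10765 untied named genes these shares were 33.9% and 32.0%, and replicate 2 was alone the highest for 39.4%. Among the 4451 of them called above background the shares were 62.0% and 58.7%. The members include genes not called, and these differences were not tested. Spermatocyte markers had means of 11.06, 11.01 and 11.15 on replicates 1, 2 and 3, spermatid markers 12.31, 12.29 and 12.35, and markers of other tissues 6.41, 6.47 and 6.37, and the part of cell makeup in the array order was not tested.

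More than 1 single-gene probe set was present for 9 members, and they differed by more than 1 on the log2 scale for Med4, Taf13 and Taf1d. Taf13 was at 8.52 by one and 10.12 by the other, both above the level. For Med4, Taf1d, Polr2h and Polr3e, probe sets lay on both sides of the level. Array IDs run along the genome, and 12 member probe sets of 9 genes had IDs where at least 15 of the 20 nearest named probe sets belong to genes of 1 other chromosome, as 621 of 21695 did over the array. What such a probe set measures was not tested. Without them the calls of 2 members changed, Polr2c at 8.20 not being called and Med4 at 8.58 being called, and Taf9 had no level.

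**Figure D5:**
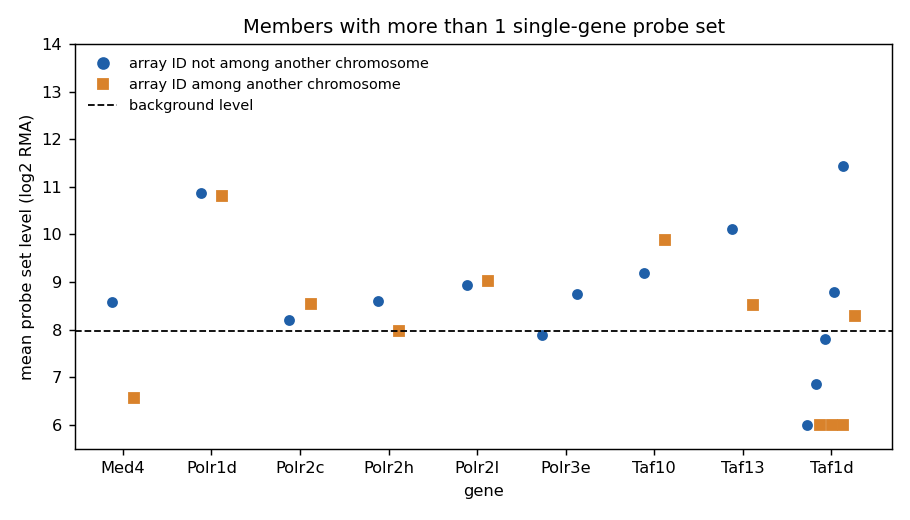
Mean level of each probe set (log2 RMA, y axis) for the 9 members with more than 1 single-gene probe set, with squares for probe sets whose array ID lies among those of another chromosome and the background level of 7.98 dashed. The Taf1d probe sets spread from 6.0 to 11.44, and the Polr1d pair differs by 0.05.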

How the data were processed

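The authors deposited log2 probe set levels, 1 column per array. Per the series' design text they were made by RMA with Affymetrix Power Tools on mm9 annotation; its version was not given in the sources used here. Scanner files were not used here, so detection calls were not available, and the precision is limited by 3 arrays. The platform annotation named 1 gene for 21789 of 35556 probe sets and several for 1621, with no name here for the other 12146. Entrez identifiers served to update symbols through the GRCm38.p6 gene table (21698 probe sets matched, all 130 of the members), which also gave chromosomes. The median of the single-gene probe sets gave a gene its level.

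Calls above background used limma 3.58.1 (R 4.3.3) with an intercept model with empirical Bayes variances (prior degrees of freedom 0.267), tested one-sided, with Benjamini-Hochberg adjustment at 0.05 over all 19938 genes. On simulated data with 19938 genes for this test, 45 of 50 genes planted 0.25 above the level and 48 of 50 planted 0.5 above it were called. Of 12203 at or below it 1 was called. A simulated gene there with an SD of 0 could not be called. Because 46.0% of named genes had tied values, this count was partly fixed in advance. These 12203 were at no set distance from the level, and the calling of genes just below it was not tested separately. The simulated SDs were drawn from the deposited ones, which understate the error where values tie. Recovery of planted genes with tied values was not tested separately.

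The symbol rule uses no levels, but it, the lists and the tests were chosen with earlier results of these data known. Genes were named by role: germ cell paralogs, paralog pairs, members not called, the 4 highest per complex, the 5 largest SDs, X-linked members, members near the level or with discordant probe sets, and of other genes those not called and the 2 highest per list.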

Additional observations from a re-analysis of the deposited data

How the results depend on the processing

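The count of 86 members above background was within 1.5 times of the reported one under every alternative tried except the 99th percentile background, which gave 44. The others gave from 62 with the keratin associated genes alone to 109 with the vomeronasal receptor genes alone as background. Leaving out each array in turn gave 80 to 82 members. For all named genes the count of 7295 was 3847 with the 99th percentile, 10958 with the olfactory receptor and 12359 with the vomeronasal receptor background, and 6662 to 7090 without each array in turn. The 4 germ cell paralogs were called under every alternative, also without each array. The other listed genes, partners and spermatid regulators together, 51 of 71, ranged from 34 to 66 over the alternatives, and from 49 to 52 without each array. Adding probe sets of several genes gave 79 members, with Polr2k and Med20 gained and 9 lost as the background level moved to 8.33. The highest probe set per gene gave 88, with Med4 and Taf1d gained. It moved the level of 8 members beyond their SD, all upward, by up to 4.57 for Taf1d. Leaving out probe sets with array IDs among another chromosome, chosen after seeing the data, gave 85 of 113. Of 24 complexes or modules, the count moved beyond 1.5 times for 13 with the 99th percentile, 9 with the keratin associated, 4 with the olfactory receptor and 5 with the vomeronasal receptor background, and for polymerase III with several-gene probe sets and TFIIF without each array. Centring the arrays lost Polr2f and gained Polr2d. Centring, limma's trend and robust options, untested calls by mean or on each array, and updated symbols gave 86 or 87. Signal over background limits the calls, as 12 members lay within 0.25 of the level. No paired analysis was possible because there is 1 group.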
